A study of Rattus norvegicus with 4 samples.

Results

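Long non-coding RNA (lncRNA) transcripts of 1 stretch of the rat genome, chromosome 13 from 84 to 85 Mb (build rn6), were described in primary cardiomyocytes kept in high or normal glucose. The members were chosen by position and level and are the transcripts that start in this window and average at least 1 FPKM (reads scaled by transcript length and library total) over the 4 libraries, where a transcript that a library does not list counts as 0. 6 of the 11 listed transcripts of the window met this rule, out of 7321 such transcripts in the whole series. The window itself was selected on the measured glucose ratios, for neighbouring transcripts lower in high glucose at both times, so the glucose ratios below are a description of that choice and carry no test. The label held for 5 of the 6 members, and the other, NONRATT008918.2, stood higher in high glucose at both times.

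The cells were primary cardiomyocytes from Sprague-Dawley rats aged 1 to 2 days, plated in medium with carnitine at 2 mM, creatine at 5 mM and taurine at 5 mM. The high glucose groups had 33 mmol/l glucose for 24 h or 48 h. The normal glucose groups had 5 mmol/l glucose with 28 mmol/l mannitol, a sugar alcohol that evens out the osmolality, for 24 h or 48 h. The study used high glucose to provoke oxidative stress and apoptosis. Each of the 4 groups had 1 library of total RNA, with no separate cultures named behind it. The deposited tables hold transcript identifiers without gene names, so the labelled cell type could not be checked against marker genes here.

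LncRNAs are transcripts with no long protein-coding reading frame, and known ones act at chromatin, as scaffolds for proteins or by binding other RNAs. In the heart, lncRNAs are known as regulators of cardiomyocyte growth, differentiation and survival. Catalogues such as NONCODE, whose identifiers the members carry, list many unspliced transcripts, which may be genes of their own or may lie within the introns or untranslated regions of other genes. Which protein-coding genes lie at these positions in rn6 was not analysed here. 0 of the 11 identifiers matched a gene table of another rat assembly, so roles of the members are not given.

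4 of the 6 members formed a run. NONRATT008425.2 (chromosome 13, 84531814 to 84532364, 551 nt), NONRATT008426.2 (84533598 to 84534191, 594 nt), NONRATT008427.2 (84534357 to 84535617, 1261 nt) and NONRATT008428.2 (84535624 to 84536255, 632 nt) have consecutive identifiers and follow each other within 4442 bases. The gaps between them are 1233, 165 and 6 bases, and the transcripts cover 68.4% of the stretch. Each is a single block whose length equals its span, none overlaps another listed transcript, and the nearest listed transcripts lie 219.6 kb before and 63.7 kb after the run. The other members are single blocks as well. NONRATT008913.2 (84076468 to 84077102, 635 nt) and NONRATT008918.2 (84302824 to 84303401, 578 nt) stand 225721 bases apart. Single blocks thus made up 6 of 6 members, against 45.1% of all 7321 transcripts.

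All 4 transcripts of the run were lower in high glucose than in normal glucose at 24 h and again at 48 h. NONRATT008427.2 had 92 reads (4.66 FPKM) in high glucose and 123 reads (8.21 FPKM) in normal glucose at 24 h. At 48 h it had 63 reads (3.51 FPKM) in high glucose and 169 reads (9.02 FPKM) in normal glucose. Both high glucose libraries were thus low and both normal glucose libraries high, without overlap. In RNA from a whole culture, fewer cells of a type and less RNA per cell cannot be told apart. Its ratio of high over normal glucose in CPM, counts scaled by the library total, was 0.568 at 24 h, with a 95% counting interval of 0.428 to 0.750, and 0.389 at 48 h (0.287 to 0.523).

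NONRATT008425.2, the first of the run, stood at 4.75 FPKM (41 reads) in high glucose and 8.71 FPKM (57 reads) in normal glucose at 24 h. Its 48 h levels were 4.21 FPKM (33 reads) in high glucose and 9.16 FPKM (75 reads) in normal glucose. The normal glucose libraries were again the high ones, and the CPM ratio of high over normal glucose was 0.546 at 24 h (0.356 to 0.830) and 0.459 at 48 h (0.295 to 0.701).

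NONRATT008426.2 had 2.26 FPKM (21 reads) in high glucose and 6.09 FPKM (43 reads) in normal glucose at 24 h. At 48 h it had 3.08 FPKM (26 reads) in high glucose and 6.12 FPKM (54 reads) in normal glucose. The ratios were 0.371 at 24 h (0.209 to 0.638) and 0.503 at 48 h (0.302 to 0.817), so for this member the 24 h difference was the wider, with intervals that overlap.

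NONRATT008428.2, which begins 6 bases after its neighbour ends, had 1.82 FPKM (18 reads) in high glucose and 4.66 FPKM (35 reads) in normal glucose at 24 h. Its 48 h levels were 2.00 FPKM (18 reads) in high glucose and 4.47 FPKM (42 reads) in normal glucose. Its ratios were 0.390 at 24 h (0.208 to 0.708) and 0.448 at 48 h (0.242 to 0.795).

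**Figure D1:**
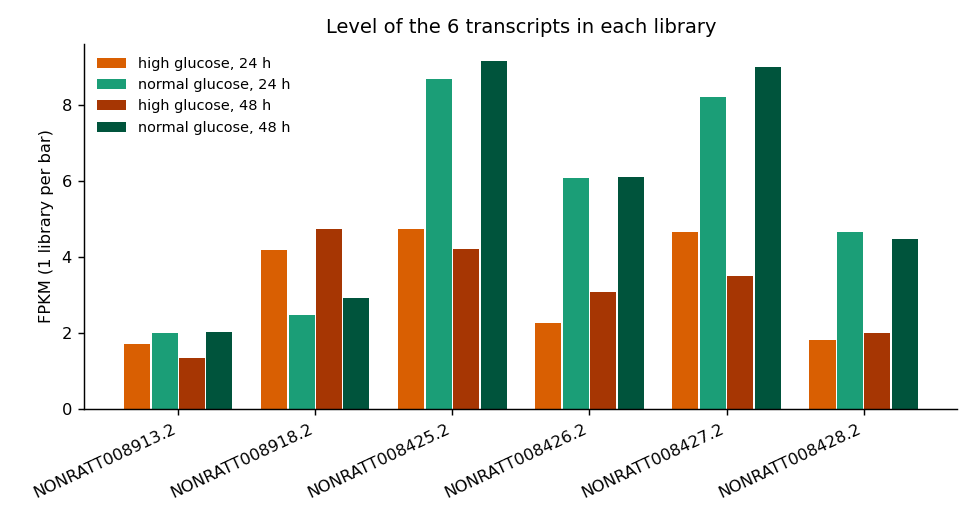
FPKM (y axis, linear from 0) of the 6 members (x axis, in order along the chromosome) in each of the 4 libraries, 1 bar per library. In the 4 members of the run at the right the high glucose bars lie between 1.82 and 4.75 FPKM and the normal glucose bars between 4.47 and 9.16 FPKM, while NONRATT008918.2 has its high glucose bars above its normal glucose bars.

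The remaining members had fewer reads or the other direction. NONRATT008913.2 had 17 reads (1.71 FPKM) in high glucose and 15 reads (1.99 FPKM) in normal glucose at 24 h. At 48 h it had 12 reads (1.33 FPKM) in high glucose and 19 reads (2.01 FPKM) in normal glucose. Its ratios of 0.860 (0.404 to 1.85) and 0.660 (0.292 to 1.43) had counting intervals that include 1. NONRATT008918.2 had 38 reads (4.20 FPKM) in high glucose and 17 reads (2.48 FPKM) in normal glucose at 24 h, and 39 reads (4.74 FPKM) in high glucose and 25 reads (2.91 FPKM) in normal glucose at 48 h. Its ratios of 1.70 (0.934 to 3.20) and 1.63 (0.961 to 2.81) pointed the other way from the rest, and their intervals also include 1. At this depth neither member's difference between the media is clear of counting error at a single time.

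5 members were lower in high glucose at both times, against 36.7% of all 7321 transcripts, and 1 was higher at both, against 17.5%. The same 5 had both high glucose libraries below both normal glucose libraries (26.0% of all transcripts) and NONRATT008918.2 had both above (11.7%). 4 members, the run, had counting intervals below 1 at both times (4.43% of all transcripts). On a log2 (CPM + 1) scale, where low transcripts show smaller folds than in CPM, 0 members were at least 2-fold lower at 24 h (2.55% of all transcripts) and 1, NONRATT008427.2, was at 48 h (4.32%). The median log2 ratio of the 6 members on that scale was -0.70 at 24 h and -0.73 at 48 h, against -0.04 and -0.14 over all transcripts. The rule used these contrasts, so nothing is read from these shares. Among 735 windows of 1 Mb with at least 4 such transcripts, 1, this window, had both medians this low, 4 (this one included) had as many transcripts with both intervals below 1, and 89 had as many at 0.5 times the normal glucose CPM or less at both times.

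Summed over the run, 172 reads (11.0 CPM) in high glucose stood against 258 reads (21.7 CPM) in normal glucose at 24 h. At 48 h the sums were 140 reads (9.84 CPM) in high glucose and 340 reads (22.9 CPM) in normal glucose. The run was therefore 1.98-fold lower in high glucose at 24 h, with an interval from counting error of 1.62 to 2.41, and 2.33-fold lower at 48 h (1.90 to 2.85). Each group is 1 library, so these differences have no replicate check, and the intervals cover counting error only. TMM factors, an alternative scaling, moved the median log2 ratio of all transcripts at 48 h by 0.13 and put the run's ratio at 0.524 at 24 h and 0.493 at 48 h, with all 4 of its transcripts still lower at both times.

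**Figure D2:**
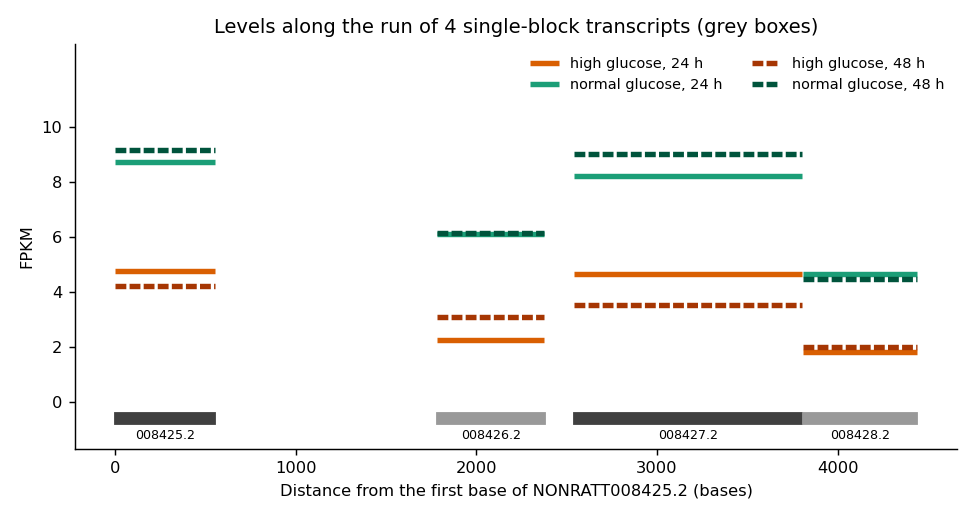
FPKM (y axis) of the 4 transcripts of the run, drawn as horizontal lines over the bases each covers (x axis, bases from the first base of NONRATT008425.2), with 1 colour per library and grey boxes for the transcripts. In every box the 2 high glucose lines lie below the 2 normal glucose lines, and the 4 transcripts have the same order by level in all libraries.

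The proportions among the transcripts of the run were close in all 4 libraries. They come from the same counts as the glucose ratios that the window was selected on, so they are a description. By FPKM, a level per length, the order from highest to lowest was NONRATT008425.2, NONRATT008427.2, NONRATT008426.2 and NONRATT008428.2 in each of the 4 libraries. NONRATT008427.2, the longest, took 53.5% of the run's reads in high glucose at 24 h (95% Wilson interval 46.0 to 60.8) and 47.7% in normal glucose at 24 h (41.7 to 53.8). At 48 h it took 45.0% in high glucose (37.0 to 53.3) and 49.7% in normal glucose (44.4 to 55.0). The share of NONRATT008425.2 lay between 22.1% and 23.8%, that of NONRATT008426.2 between 12.2% and 18.6%, and that of NONRATT008428.2 between 10.5% and 13.6%. For each transcript the intervals of the 4 libraries share a common range, but a shift in proportions was not tested. Whether the 4 entries are parts of 1 longer RNA was not tested.

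**Figure D3:**
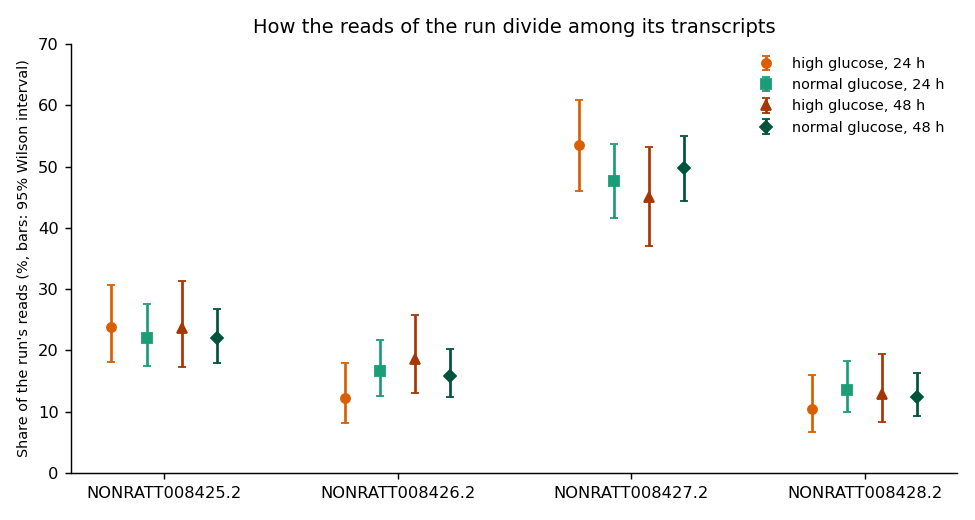
Share of the run's reads (y axis, %, linear from 0) taken by each of its 4 transcripts (x axis) in each library, with 95% Wilson intervals that cover counting error only. For every transcript the 4 intervals overlap, with NONRATT008427.2 at 45.0% to 53.5% and NONRATT008428.2 at 10.5% to 13.6%.

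Time, which the rule did not use, was compared in 1 fit over all 4 libraries. No member was past the threshold for 48 h against 24 h in the quasi-likelihood test of edgeR, fitted with medium as a covariate (Benjamini-Hochberg adjustment over 7321 transcripts). Their log2 changes ran from -0.17 for NONRATT008913.2 (SE 0.39, adjusted p = 0.977) to 0.21 for NONRATT008426.2 (SE 0.32, adjusted p = 0.965). The others were 0.20 for NONRATT008918.2, 0.03 for NONRATT008428.2, -0.05 for NONRATT008425.2 and -0.13 for NONRATT008427.2, with SEs between 0.28 and 0.33. These SEs were derived from the test, as the size of the log2 change over the square root of its F statistic. The same edgeR fit called 0 of all 7321 transcripts (0%), while an unadjusted p under 0.05 was reached by 117 as higher and 194 as lower, 4.25% in all and 0 of them members. DESeq2 called 14 higher and 22 lower and limma 4 and 8, again with 0 members among them. The 2 media stand in for replicates in these fits, with 1 residual degree of freedom, so they leave room for time differences larger than the standard errors. The standard errors also depended on the method, and those of DESeq2 and limma come from their own fits. By DESeq2 they ran from 0.58 for NONRATT008427.2 to 1.25 for NONRATT008913.2. By limma on log2 (FPKM + 1) they ran from 0.19 for NONRATT008425.2 to 0.24 for NONRATT008913.2.

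Within each medium the run had similar levels at the 2 times. In high glucose it stood at 9.84 CPM at 48 h and 11.0 CPM at 24 h, a ratio of 0.896 (counting interval 0.711 to 1.13). In normal glucose it stood at 22.9 CPM at 48 h and 21.7 CPM at 24 h, a ratio of 1.05 (0.894 to 1.24). For each of the 6 members the counting interval of this ratio included 1 in both media, with ratios from 0.754 to 1.36 in high glucose and from 0.959 to 1.18 in normal glucose. At least 2-fold apart on the log2 (CPM + 1) scale were 0 members in high glucose (6.91% of all transcripts) and 0 in normal glucose (4.67%). These ratios share libraries with the glucose ratios above.

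The 1 Mb on either side held 6 transcripts of at least 1 FPKM, 5 before the window and 1 after it. 3 of them were lower in high glucose at both times, against 36.7% of all 7321 transcripts. At 48 h all 6 were lower, against 63.6% of all transcripts, so lower at 48 h was not particular to the window. The nearest before the window, NONRATT008909.2 (83866817 to 83867566) and NONRATT008907.2 (83862547 to 83866037), had ratios of 0.795 (0.417 to 1.52) and 0.683 (0.246 to 1.87) at 24 h and of 0.696 (0.431 to 1.11) and 0.723 (0.373 to 1.37) at 48 h. Those of NONRATT008416.2 (83575204 to 83576116), named after its values were seen, were 0.676 (0.464 to 0.981) and 0.696 (0.494 to 0.976), and it alone of the flanking transcripts had both intervals below 1.

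The other flanking transcripts had opposite directions at the 2 times. NONRATT009029.2 (85373681 to 85376493), 837425 bases after the run, had 14.4 FPKM in high glucose and 13.1 FPKM in normal glucose at 24 h, and 10.2 FPKM in high glucose and 13.2 FPKM in normal glucose at 48 h. Its ratio was 1.09 at 24 h (0.968 to 1.24) and 0.773 at 48 h (0.679 to 0.880). NONRATT008418.2 and NONRATT008419.2, overlapping spliced transcripts that start at 83680426 and 83681221, named after their values were seen, had ratios of 1.41 (1.15 to 1.73) and 1.81 (1.47 to 2.25) at 24 h but 0.497 (0.387 to 0.635) and 0.824 (0.664 to 1.02) at 48 h. The counts alone do not separate reads that these overlapping entries share. The median log2 ratio of the 6 members was -0.70 at 24 h and -0.73 at 48 h, against -0.04 and -0.37 for the 6 flanking transcripts, a difference given without a test since the window was selected on it.

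**Figure D4:**
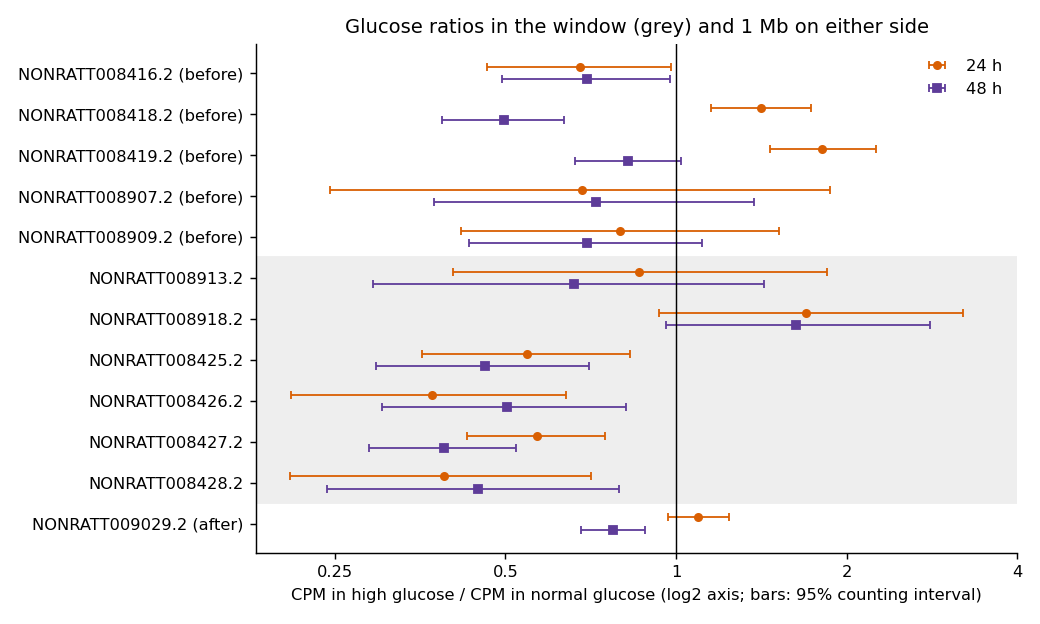
Ratio of CPM in high glucose over CPM in normal glucose (x axis, log2 scale) at 24 h and 48 h, with 95% counting intervals, for the 6 members (grey band) and the 6 transcripts of at least 1 FPKM within 1 Mb on either side, in order along the chromosome from top to bottom. The intervals of the run, the lowest 4 rows of the band, lie wholly below 1 at both times, and NONRATT008918.2 lies above 1 with intervals that include it.

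All 3 neighbouring pairs of the run had the same direction of the glucose ratio at both times. The window was selected for neighbours lower in high glucose at both times, so this restates the choice and carries no test. Other neighbours this close did not all share their direction. Over the whole series, 377 pairs of neighbouring single-block transcripts of at least 1 FPKM lay at most 2 kb apart without overlap, a distance chosen after the run was seen. The transcripts of a pair shared their direction in 60.7% of these pairs at 24 h, in 65.0% at 48 h and in 39.3% at both times. For all 809 neighbouring pairs at most 2 kb apart, spliced transcripts included, the shares were 56.1%, 61.7% and 33.7%. Unrelated pairs also share a direction part of the time. Their share was not computed, so no common movement is read from these values. The same distance chained the single-block transcripts into 341 runs of at least 2. Of these, 77 had all transcripts lower in high glucose at both times and 17 had all higher. Among all 7321 single transcripts, 36.7% were lower at both times and 17.5% higher, so lower was the commoner direction in CPM by the library totals. That depended on the scaling. With the totals 55.4% of all transcripts were lower at 24 h and 63.6% at 48 h, but with TMM factors 50.4% and 50.9%. The counts of runs were not repeated under other scalings. 3 runs held 4 or more transcripts, and the run described here was the only one of these 3 with every transcript lower at both times. Its summed ratio was 0.506 at 24 h and 0.430 at 48 h, and no other of the 341 runs had sums that low at both times. In the other direction, 1 of the 341 runs had sums at least as many fold higher at both times. The window was selected on these ratios, so the place of its run among the others is a description and carries no test.

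The 5 listed transcripts of the window below the limit averaged between 0.110 and 0.925 FPKM with 0 to 22 reads per library. NONRATT008913.2 at 1.76 FPKM and NONRATT008428.2 at 3.24 FPKM were the lowest members, while NONRATT008912.2 (84073584 to 84074921) was just outside at 0.925 FPKM and NONRATT008429.2 (84599912 to 84600652) next at 0.725 FPKM. NONRATT008912.2 had ratios of 0.911 (0.433 to 1.94) and 0.712 (0.344 to 1.44) and was the only one of the 5 lower in high glucose at both times. NONRATT008429.2, the first listed transcript after the run, had 9 reads in high glucose and 8 in normal glucose at 24 h and 8 in high glucose and 5 in normal glucose at 48 h. Scaled by the library totals, its ratios were 0.854 (0.292 to 2.54) at 24 h and 1.67 (0.482 to 6.49) at 48 h, on either side of 1 and with wide intervals.

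The summed profile of the 6 members over the 4 libraries was matched most closely, by Euclidean distance between log2 (CPM + 1) profiles centred on their means, by 3 spliced transcripts on other chromosomes. NONRATT019626.2 (chromosome 3, 113311120 to 113312165) had a distance of 0.036 and ratios of high over normal glucose of 0.569 at 24 h and 0.464 at 48 h. NONRATT022322.2 (chromosome 5, 78563868 to 78565306) had a distance of 0.044 and ratios of 0.517 and 0.404. NONRATT028311.2 (chromosome 8, 21803737 to 21810221) had a distance of 0.081 but few reads, 4 in high glucose against 13 in normal glucose at 24 h and 3 against 20 at 48 h. Its CPM ratios of 0.233 and 0.157 were lower than those of the summed members, 0.594 and 0.519. The log2 (CPM + 1) scale shrinks the folds of such a low transcript. Of the members, NONRATT008425.2 was nearest at 0.037 and NONRATT008918.2 farthest at 1.30.

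**Figure D5:**
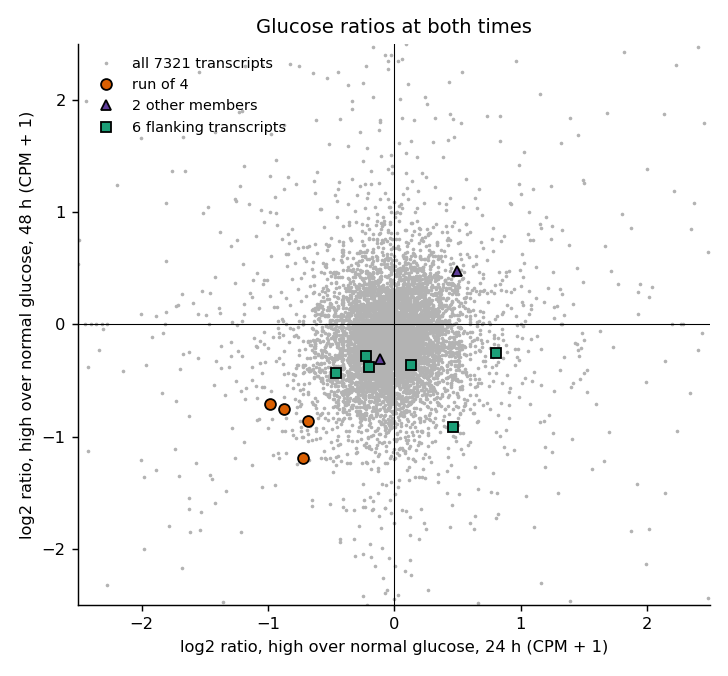
Log2 ratio of high over normal glucose on the scale of log2 (CPM + 1) at 24 h (x axis) and 48 h (y axis), with 1 grey point for each of the 7321 transcripts of at least 1 FPKM, of which 148 fall outside the axes. The run of 4 lies in the lower left, between -0.98 and -0.68 at 24 h and between -1.19 and -0.71 at 48 h, apart from the 2 other members and the 6 flanking transcripts.

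Over the whole series, the lncRNA counts of a library summed to between 846946 and 1075428 and took between 6.36% (high glucose at 48 h) and 7.24% (normal glucose at 48 h) of the library total behind the FPKM values. 1 read corresponded to between 0.0639 and 0.0842 CPM. The share was 6.83% in high glucose and 7.13% in normal glucose at 24 h, so both high glucose libraries had a lower share than both normal glucose libraries. The part of this in the glucose ratios was not tested beyond the scalings given.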

How the data were processed

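Strand-specific total RNA libraries were sequenced, per the labels' protocols, 1 for each of 4 groups assigned by title. Alignment and quantification tools named in the submitters' processing notes are TopHat2 2.1.0 and Cufflinks, and the builds are rn6 and Rnor_6.0. The read counter and its use of strand were not given in the sources used here. Raw read counts and FPKM values per lncRNA transcript with at least 1 read were deposited, per the file headers, and transcript lengths in nt with 1 library. Totals behind the FPKM values, between 11877895 and 15654067, were recovered from count, length and FPKM, and of the transcripts with a deposited length all but 2 in each 24 h library fitted within 1%. CPM used these totals. Ratios of single libraries have exact conditional (Clopper-Pearson) intervals at 95%. The intervals treat every read as independent and cover counting error only. Reads carry no molecular identifiers and may be PCR copies, which would make the intervals too narrow. Time was tested with edgeR 4.0.16 (glmQLFit) on counts, with DESeq2 1.42.0 and limma 3.58.1 as alternatives. All members were named. In the flanks and under the FPKM limit the 2 transcripts nearest the window or the limit were named, and others as stated. The members and lists were chosen with earlier results of these data known.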

Additional observations from a re-analysis of the deposited data

How the results depend on the processing

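The count of members lower in high glucose at both times was 5 of 6 under TMM factors, size factors, a same sum for all libraries, a pseudocount of 0.25 CPM, FPKM in place of CPM and sums per locus, 4 of 5 at a mean of at least 2 FPKM, and 6 of 11 with no FPKM limit. Without that limit the median log2 ratio was -0.12 at 24 h and -0.27 at 48 h, since 5 sparse transcripts enter. All 60 log2 ratios of single members under the 5 other scalings, pseudocount and unit kept their sign. They also stayed within the counting interval of the main log2 (CPM + 1) ratio. Values with the other pseudocount or unit are on a different scale from that interval, so for them this is no measure of agreement. The share of all transcripts lower at both times was 36.7%, and between 26.7% and 27.3% under the 3 scalings. Leaving out any transcript of the run, an alternative chosen after seeing the data, gave summed log2 ratios from -1.02 to -0.84 at 24 h and from -1.17 to -0.96 at 48 h. For 48 h against 24 h, edgeR called 0 transcripts, and the counts higher and lower were 29 and 42 without the filter on low values, 5 and 6 without the term for medium, 14 and 22 by DESeq2, 4 and 8 by limma, and 0 to 22 and 0 to 37 when a library was left out. 0 members were called in any of these 10 alternatives. The small time change of NONRATT008425.2 turned to 0.016 with TMM factors and 0.013 with size factors. Leaving out a library also sets high against normal glucose by construction, and the log2 time changes then ran from -0.67 to 0.49 for NONRATT008425.2, -0.42 to 1.02 for NONRATT008426.2, -0.87 to 0.49 for NONRATT008427.2, -0.67 to 0.83 for NONRATT008428.2, -0.47 to 0.13 for NONRATT008913.2 and -0.21 to 0.62 for NONRATT008918.2. With 12 to 169 reads per member and library, differences under about the width of the counting intervals cannot be seen.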
